A study of Mus musculus with 4 samples.

Results

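The 10 genes described here belong to the signalling pathways of BMP and TGF-beta in the mouse lung. They are Bmp4, Tgfb1, Tgfb2, Tgfb3, Bmpr2, Tgfbr2, Smad6, Smad7, Id1 and Id3. They were chosen by name, with earlier results of these data known. All probe sets annotated to exactly 1 of these symbols were taken. These were 14 of the 22690 probe sets on the arrays and 10 of the 12393 genes measured. RNA came from whole lungs of mouse embryos, labelled Sftpc-Nmyc on 2 arrays and wild type on 2, all at embryonic day 18 by their titles. In Sftpc-Nmyc embryos a fusion of mouse Nmyc1 (now Mycn) with EGFP was driven by 3.7 kb of regulatory DNA from human SFTPC, a gene active in lung epithelium, so the transgene addresses the epithelium while the RNA is that of the whole organ. These embryos came from injected F2 eggs of C57BL/6J and DBA/2J parents and were collected at day 18.5, per the design text. The sources used here do not give the strain and exact age of the wild-type embryos, nor whether a sample pools embryos. Duplicates are biological replicates per the same text.

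BMP and TGF-beta ligands are secreted proteins that bind pairs of type I and type II serine/threonine kinase receptors. The activated receptors phosphorylate Smad proteins, which enter the nucleus with Smad4 and change transcription, and the cell answers by making inhibitory Smads and Id proteins. In the developing lung Bmp4 is known from the tips of branching epithelium and from mesenchyme, and TGF-beta signalling from mesenchyme, vessels and matrix.

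In Sftpc-Nmyc lungs 4 of the 10 genes were lower and 0 were higher in limma, with the same counts at an unadjusted p under 0.05. Of all 8675 genes tested 15.7% were lower and 14.7% higher, and 30.4% changed in either direction, all by adjusted p. The share of all genes at an unadjusted p under 0.05 was not counted. The genes that fell were the ligands Tgfb1, Bmp4 and Tgfb3 and the TGF-beta receptor gene Tgfbr2. Tgfb1 was 3.39-fold lower, Tgfbr2 2.05-fold, Bmp4 1.90-fold and Tgfb3 1.58-fold. The inhibitory Smads Smad6 and Smad7, the targets Id1 and Id3, the receptor gene Bmpr2 and the ligand gene Tgfb2 did not pass the test. The median log2 fold change was -0.35 over the 10 genes and -0.02 over all genes tested. The test was limma on log2(signal + 5) values after quantile normalization, with Benjamini-Hochberg adjustment over all genes tested and a threshold of 0.05. Each gene was represented by its brightest probe set. All fold changes are Sftpc-Nmyc over wild type, on that scale, which understates changes of dim genes, and errors after ± are limma standard errors with n = 2 arrays per group. All 10 genes passed the filter on dim genes. The groups did not overlap for 7 of the 10, close to the 68.1% of all genes tested, which therefore says nothing about these genes.

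Over the whole series, array medians lay between 65.45 and 70.8, and arrays correlated at r = 0.965 to 0.968 within a group and 0.922 to 0.933 between groups. The gene of the transgene was read by Mycn probe set 1425922_a_at at signals of 455.2 and 356 on the Sftpc-Nmyc arrays and 34.7 and 32.1 on the wild-type arrays. Probe set 1417155_at of Mycn ran the other way at 25.1 and 27.2 against 78.7 and 63.5. Probe set 1425923_at of Mycn overlapped between groups, at 61.8 and 43.8 against 57.3 and 18.8. Xist, the RNA of the silenced X chromosome, read 59.3 and 63.9 on the Sftpc-Nmyc arrays and 1707.8 and 1506.1 on the wild-type arrays by probe set 1436936_s_at, and the Y-linked Eif2s3y read 58 and 61.7 against 3.1 and 0.8. Sex and genotype therefore cannot be told apart in any comparison below. The 27 probe sets for Bacillus control transcripts reached at most 73.4, which serves as a mark of background. This mark is the highest control reading and lies above the median of every array. A signal below it, as for Eif2s3y, is therefore not shown to be background. The brightest probe sets of the lung markers Nkx2-1, Sftpc, Sftpb and Ager read above 73.4 on every array. Of 8 tested lung markers 7 were lower in Sftpc-Nmyc lungs (87.5%, against 15.7% of all genes tested) and 0 higher (limma). Log2 fold changes were -2.85 for Sftpb, -1.59 for Ager and -0.997 for Sftpc. Nkx2-1 went the other way, at 0.48 ± 0.18, and did not pass (adjusted p = 0.090 in limma across probe sets).

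**Figure D1:**
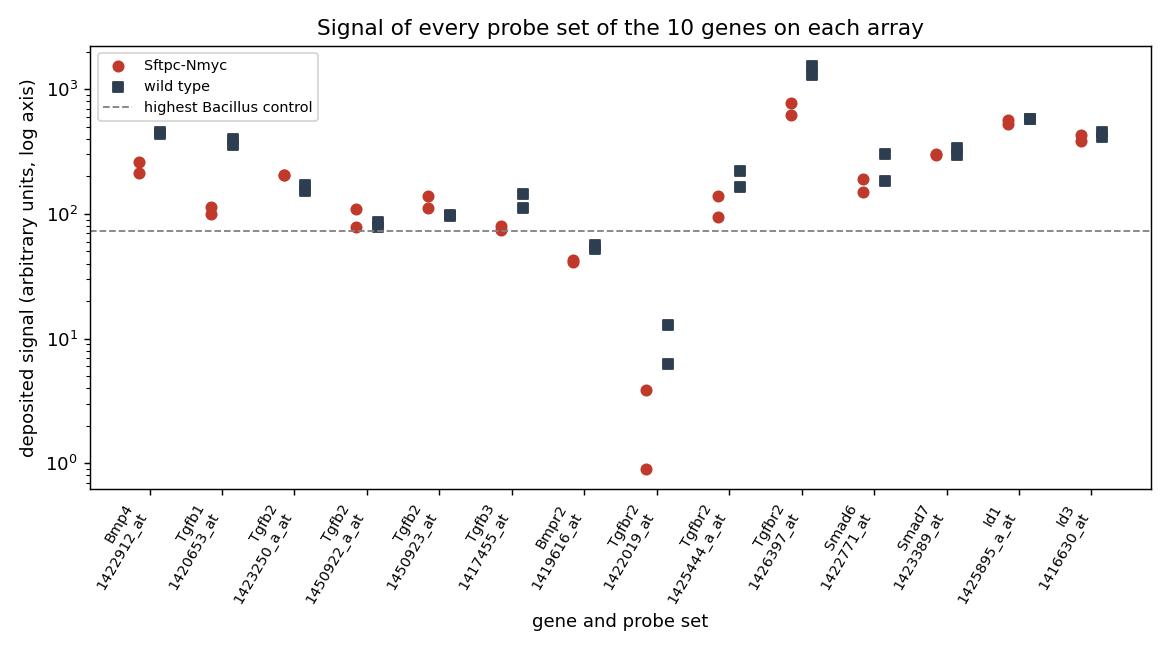
Deposited signal of each of the 14 probe sets of the 10 genes on a logarithmic axis, with 2 Sftpc-Nmyc arrays (red circles) left of 2 wild-type arrays (dark squares) and a dashed line at 73.4, the highest Bacillus control. Tgfb1 (114.3 and 99.6 against 400.3 and 354.3) shows the widest gap among the probe sets above that line, while Smad7, Id3 and Smad6 overlap between groups.

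The DNA just upstream of 4 genes is shown because Nmyc is a DNA-binding protein. The 4 were picked by outcome: Tgfb1, Tgfbr2 and Bmp4 fell, and the ligand gene Tgfb2 did not pass the test. Binding of Nmyc to these windows was not tested. The windows are the 250 bases before each RefSeq transcript start in GRCm38.p6, read 5′ to 3′ on the strand of the gene. They lie at chr7:25686752-25687001 (plus strand), chr9:116175364-116175613 (minus strand), chr14:46390670-46390919 (minus strand) and chr1:186705990-186706239 (minus strand). Capitals mark the E-box CACGTG, the motif that MYC family proteins bind.
Tgfb1: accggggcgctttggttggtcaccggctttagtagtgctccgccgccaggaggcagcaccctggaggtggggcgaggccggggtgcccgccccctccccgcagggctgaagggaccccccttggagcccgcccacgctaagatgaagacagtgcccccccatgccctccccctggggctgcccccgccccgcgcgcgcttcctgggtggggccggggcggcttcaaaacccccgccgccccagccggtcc
Tgfbr2: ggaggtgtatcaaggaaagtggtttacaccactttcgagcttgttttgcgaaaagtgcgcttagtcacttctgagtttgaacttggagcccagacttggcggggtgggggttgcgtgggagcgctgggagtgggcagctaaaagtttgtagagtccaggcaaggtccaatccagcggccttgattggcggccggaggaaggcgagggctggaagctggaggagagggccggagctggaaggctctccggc
Bmp4: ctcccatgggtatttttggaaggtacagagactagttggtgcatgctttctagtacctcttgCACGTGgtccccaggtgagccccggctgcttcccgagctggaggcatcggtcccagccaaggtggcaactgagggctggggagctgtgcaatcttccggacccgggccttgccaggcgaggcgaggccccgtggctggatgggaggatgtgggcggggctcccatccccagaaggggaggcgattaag
Tgfb2: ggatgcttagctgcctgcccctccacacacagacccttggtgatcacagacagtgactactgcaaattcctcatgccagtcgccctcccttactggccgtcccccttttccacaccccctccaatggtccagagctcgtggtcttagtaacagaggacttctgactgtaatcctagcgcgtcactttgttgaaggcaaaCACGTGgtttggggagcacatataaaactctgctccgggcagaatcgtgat

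RefSeq windows were matched by symbol for 7 of the 10 genes. The E-box, which reads the same on both strands, was present in the windows of Bmp4, starting 188 bases before the start, and Tgfb2, starting 51 bases before it. It occurs in 6.02% of all 32851 windows of that length. The motif GGCGCC, a GC-rich element bound by Smads of the BMP branch and also palindromic, occurred in the window of Bmpr2 and in 9.59% of all windows. The palindromic Smad element GTCTAGAC occurred in none of the 7 and in 0.167% of all windows. None of these motifs overlapped another. The windows of Id3, Smad6, Tgfb1 and Tgfbr2 held no match to any of the 3 motifs. The E-box thus occurred upstream of a gene that fell and of a gene that did not pass.

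Among the ligands, Tgfb1, the TGF-beta isoform broadly made by vessels, blood cells and stroma, gave signals of 114.3 and 99.6 in Sftpc-Nmyc lungs and 400.3 and 354.3 in wild-type lungs. The groups were far apart relative to the spread within each. Its log2 fold change was -1.76 ± 0.17 (limma adjusted p = 0.00051). Leaving out any 1 of the 4 arrays kept Tgfb1 past the threshold (limma adjusted p up to 0.012). Some blood cell markers were lower alongside Tgfb1. Those of macrophages and monocytes were lower in 4 of 10 tested (40%, against 15.7% of all genes tested), with 0 higher and 6 not passed. Their median log2 fold change was -0.65 and the lowest was -2.91. Their summed signals, which weigh the brightest genes most, were 1350 and 1366 in Sftpc-Nmyc lungs and 4656 and 6100 in wild-type lungs. Both tested erythroid markers were lower, and the 5 erythroid markers measured summed to 443.4 and 453.3 against 2368 and 2205. No marker of these lists was at 0 on all arrays, and their part in the Tgfb1 value was not tested.

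Bmp4, a morphogen of lung branching, gave signals of 212.3 and 261.7 in Sftpc-Nmyc lungs and 458.3 and 440.8 in wild-type lungs. Both Sftpc-Nmyc arrays lay well below both wild-type arrays. The log2 fold change was -0.92 ± 0.16 (limma adjusted p = 0.0045), and the 95% interval ran from -1.29 to -0.56. Bmp4 passed whichever array was left out (limma adjusted p up to 0.042).

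Tgfb3, an isoform known from mesenchyme and mesothelium whose loss in mice delays lung development, gave signals of 73.8 and 79.8 in Sftpc-Nmyc lungs and 111.5 and 144 in wild-type lungs. The Sftpc-Nmyc signals were barely above the highest Bacillus control. The log2 fold change of Tgfb3 was -0.66 ± 0.20 (limma adjusted p = 0.041). Tgfb3 did not pass once Sftpc-Nmyc replicate 1 (-0.61, limma adjusted p = 0.13), Sftpc-Nmyc replicate 2 (-0.69, 0.11) or wild-type replicate 2 (-0.48, 0.18) was dropped. It also did not pass when no dim genes were filtered out (0.092).

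Tgfb2, the isoform known from epithelium and from the outflow tract of the heart, was read by 3 probe sets annotated to a single sequence record. The brightest, 1423250_a_at, gave signals of 203.9 and 205.1 in Sftpc-Nmyc lungs and 169.5 and 153.3 in wild-type lungs. Both Sftpc-Nmyc signals were the higher ones, but the log2 fold change of 0.34 ± 0.15 did not pass (limma adjusted p = 0.13), with a 95% interval from -0.02 to 0.70. Probe set 1450923_at of Tgfb2 gave 112.1 and 140.4 against 96.6 and 97.9, a log2 fold change of 0.37 ± 0.19 (adjusted p = 0.18 in limma across probe sets). Probe set 1450922_a_at of Tgfb2 overlapped between groups, at 109.6 and 79.2 against 86.9 and 77.9, with a log2 fold change of 0.21 ± 0.22 (adjusted p = 0.53 in limma across probe sets). All 3 estimates were positive. The interval of the brightest probe set lies above that of Tgfb1, which ran from -2.15 to -1.38, but the difference between the 2 genes was not tested.

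Of the receptors, Tgfbr2, the type II receptor that binds TGF-beta and starts its signal, was also read by 3 probe sets. The brightest, 1426397_at, gave 782 and 627 in Sftpc-Nmyc lungs and 1293.1 and 1534.5 in wild-type lungs. The groups did not overlap, and the log2 fold change was -1.03 ± 0.15 (limma adjusted p = 0.0022). Tgfbr2 passed whichever array was left out (limma adjusted p up to 0.032). Probe set 1425444_a_at of Tgfbr2 gave 138.8 and 94.6 against 165.5 and 221.1, a log2 fold change of -0.70 ± 0.24 that did not pass (adjusted p = 0.067 in limma across probe sets). With 1 array left out its value was -0.96 (limma adjusted p = 0.036, which passed) without Sftpc-Nmyc replicate 1, -0.43 (0.29) without Sftpc-Nmyc replicate 2, -0.92 (0.075) without wild-type replicate 1 and -0.49 (0.29) without wild-type replicate 2. The third probe set, 1422019_at, read 3.9 and 0.9 against 12.9 and 6.3, far below the highest Bacillus control. It was left out as dim, so 13 of the 14 probe sets were tested. Of these 13, 4 were lower and 0 higher, where 12.9% of the 14266 probe sets tested were lower and 13.5% higher.

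Bmpr2, the type II receptor of BMPs and, in humans, the main gene of heritable pulmonary arterial hypertension, gave signals of 40.9 and 42.9 in Sftpc-Nmyc lungs and 52 and 56.2 in wild-type lungs. All of them lay below the highest Bacillus control. The log2 fold change was -0.24 ± 0.26 (limma adjusted p = 0.51) and its 95% interval, -0.83 to 0.35, spans changes as large as that of Tgfb3.

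**Figure D2:**
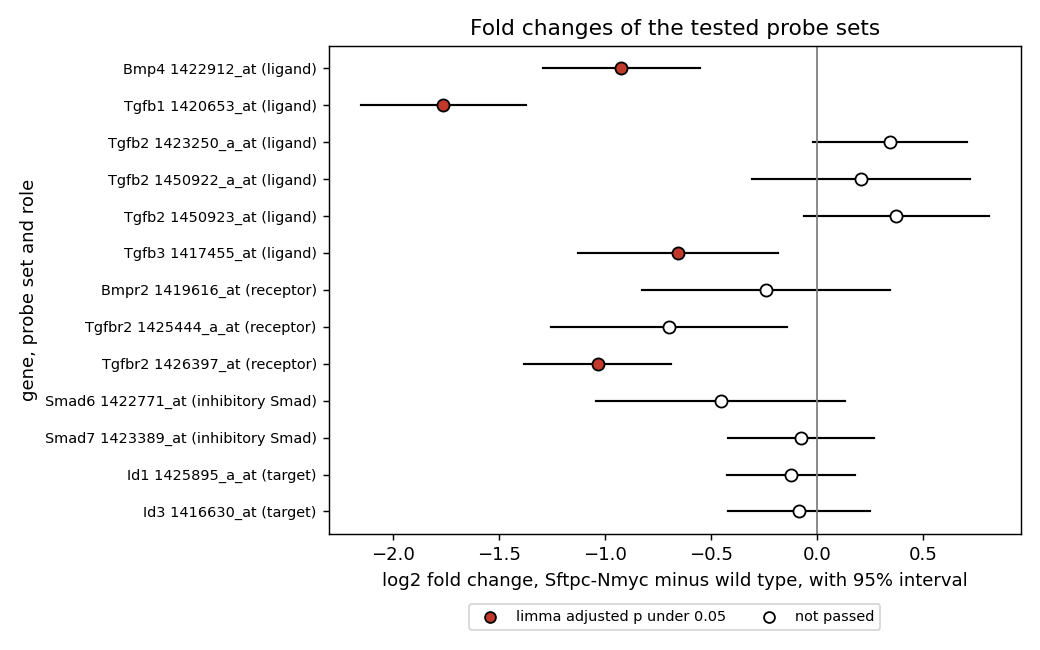
Log2 fold change, Sftpc-Nmyc minus wild type, of the 13 tested probe sets with 95% intervals from limma, ordered by role. Filled points passed at a limma adjusted p under 0.05 over all probe sets: Bmp4, Tgfb1, Tgfb3 and Tgfbr2 1426397_at lie left of 0, while the 3 Tgfb2 probe sets lie right of it with intervals that include 0.

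The inhibitory Smads block Smad signalling as part of negative feedback, Smad6 mainly in the BMP branch and Smad7 in both branches. Smad6 gave 149.4 and 192 in Sftpc-Nmyc lungs and 184.6 and 300.5 in wild-type lungs. Its groups overlapped and the wild-type arrays disagreed, so the log2 fold change of -0.46 ± 0.25 did not pass (limma adjusted p = 0.20). The estimate for Smad6 depended on wild-type replicate 2: it was -0.10 without that array (limma adjusted p = 0.78) and -0.82 without wild-type replicate 1 (limma adjusted p = 0.058). Smad7 gave 301.4 and 297.9 in Sftpc-Nmyc lungs and 335.3 and 294.7 in wild-type lungs. These overlap, and the log2 fold change of -0.08 ± 0.15 (limma adjusted p = 0.73) had a 95% interval from -0.42 to 0.27.

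Id1 and Id3 encode proteins that bind basic helix-loop-helix transcription factors and keep them from DNA, and both are classic targets of BMP signals. Id1 gave 521.9 and 563 in Sftpc-Nmyc lungs and 582.8 and 578.2 in wild-type lungs, a log2 fold change of -0.13 ± 0.13 (adjusted p = 0.50 in limma). Id3 gave 382.1 and 430.8 in Sftpc-Nmyc lungs and 410.4 and 451.9 in wild-type lungs, with overlapping groups and a value of -0.09 ± 0.14 on the log2 scale (adjusted p = 0.69 in limma). The 95% intervals were -0.43 to 0.18 for Id1 and -0.42 to 0.25 for Id3. These intervals leave out a fall as large as the -0.92 estimated for Bmp4, although smaller changes in either direction remain within them and the difference from Bmp4 was not tested.

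Across the 4 arrays, the genes closest in pattern to each gene that fell were found by Euclidean distance between centred log2 values over all genes tested. They were Car2 (distance 0.037) and Col1a2 (0.049) for Bmp4, and Stmn2 (0.048) and Scnn1g (0.13) for Tgfb1. For Tgfb3 they were Unc119 (0.021) and Rhog (0.034), and for Tgfbr2 Dpt (0.036) and Cyp2d22 (0.038). With 4 arrays these distances are a description of this data set only.

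**Figure D3:**
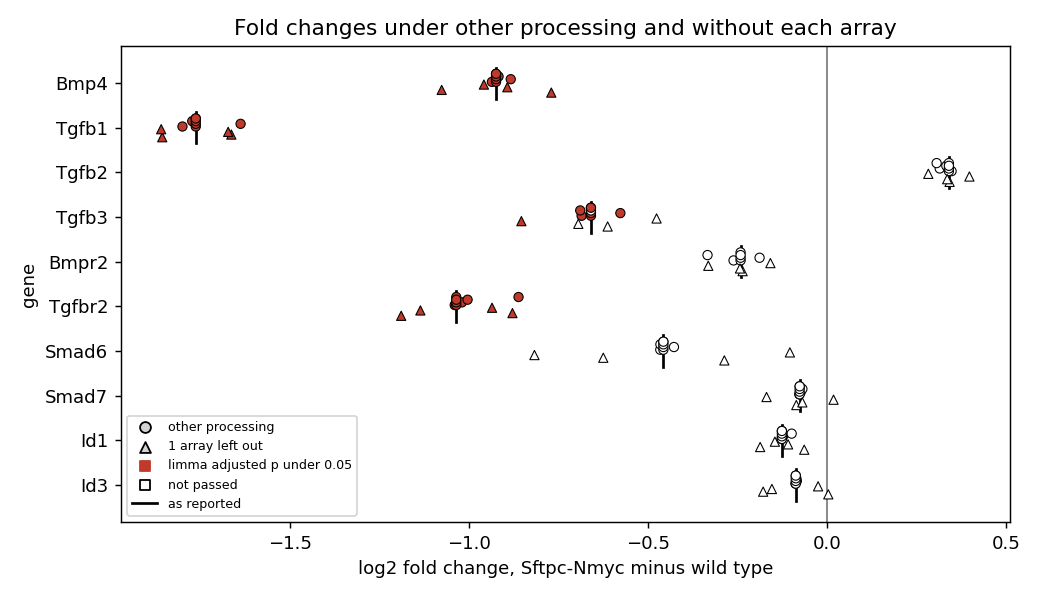
Log2 fold change, Sftpc-Nmyc minus wild type, of the 10 genes under other processing (circles) and with 1 array left out (triangles), with the reported value as a black bar. Bmp4, Tgfb1 and Tgfbr2 stay left of 0 and filled (limma adjusted p under 0.05) throughout, Tgfb3 loses its call in several settings, and Smad6 has the widest scatter, from -0.82 to -0.10.

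The rest of the family was described from lists of 9 roles, whose tested members are 74 genes besides the 10. Of these 74, 30 were lower and 3 higher (limma), with a median log2 fold change of -0.48. That is 40.5% lower and 4.05% higher, where 15.7% of all genes tested were lower and 14.7% higher. The lists were chosen with earlier results of these data known, so this contrast is a description and not independent support. The shares of all genes, 15.7% lower and 14.7% higher, apply to the counts of every list below and are not repeated for each. The 3 that rose were the receptor gene Acvr2b and the repressor genes Tgif1 and Tgif2. At an unadjusted p under 0.05 there were 39 lower and 6 higher, with no share of all genes counted at that p. The count of lower genes was 18 without wild-type replicate 2 and 19 without wild-type replicate 1, and that of higher genes was 1 without Sftpc-Nmyc replicate 1 or wild-type replicate 1 and 2 without either other array. Of the 33 calls 16 held whichever array was left out.

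Of 9 receptor genes tested, 4 were lower (44.4%, against 15.7% of all genes) and 1 was higher (11.1%, against 14.7%). The other 4 did not pass. Acvrl1, the endothelial type I receptor also called ALK1, gave 174.5 and 163.9 in Sftpc-Nmyc lungs and 524.5 and 615 in wild-type lungs, a log2 fold change of -1.73 ± 0.15 (adjusted p = 0.000415 in limma). The co-receptors Eng, its endothelial partner, and Tgfbr3, betaglycan, which presents TGF-beta2 to receptors, fell by 0.94 ± 0.15 and 0.96 ± 0.18. These 3 passed whichever array was left out. Acvr1, a BMP type I receptor, fell by 0.65 ± 0.21, a call that ended without any 1 of the arrays (limma adjusted p = 0.055 to 0.19). Probe set 1448460_at of Acvr1 stood at -0.76 ± 0.19 (adjusted p = 0.021 in limma across probe sets). Probe set 1416787_at of Acvr1 stood at -0.54 ± 0.23 and did not pass (adjusted p = 0.13 in limma across probe sets). Acvr2b, a type II receptor of activins, rose by 1.33 ± 0.34 (limma adjusted p = 0.023) from dim signals, with 73.2 and 91.1 against 22.3 and 43.5. The Acvr2b call ended without Sftpc-Nmyc replicate 1 (limma adjusted p = 0.067), Sftpc-Nmyc replicate 2 (0.13) or wild-type replicate 1 (0.073, log2 fold change 0.89). The type I receptors of TGF-beta and BMP themselves, Tgfbr1 at 0.15 ± 0.16 and Bmpr1a at 0.08 ± 0.17, did not pass.

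Endothelial markers moved with these receptors. All 16 markers of endothelium, Eng among them, were lower, and their summed signals were 4762 and 4767 on the Sftpc-Nmyc arrays and 11550 and 12710 on the wild-type arrays, with none of the 16 listed at 0 on all arrays. Their median log2 fold change was -1.29. In whole-lung RNA, fewer cells of a type and less RNA per cell cannot be told apart, and the part of endothelial content in the receptor values was not tested. Epithelial marker lists moved in different directions. Pan-epithelial markers were higher in 6 of 11 and lower in 0, with summed signals of 9375 and 9393 in Sftpc-Nmyc lungs and 5941 and 6287 in wild-type lungs. Markers of alveolar type 2 cells were lower in 9 of 9 tested, with a median log2 fold change of -2.85 and summed signals of 9333 and 6987 against 30360 and 35480. Markers of alveolar type 1 cells were lower in 6 of 6 tested, with a median of -1.86 and sums of 7882 and 5468 against 12630 and 12460. Cardiac muscle markers were lower in 7 of 7 tested, with a median of -2.32. The 9 cardiac markers measured summed to 362.2 and 609.2 in Sftpc-Nmyc lungs and 2999 and 1862 in wild-type lungs. Of 3 tested mesothelial markers 2 were lower, with a median of -1.81. The part of these tissues in the Tgfb2 and Tgfb3 values was not tested.

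Among other ligands, Gdf10, a BMP3-like factor, fell by 1.37 ± 0.31 (49.3 and 108.2 against 225.2 and 181.6, limma adjusted p = 0.013). The Sftpc-Nmyc arrays disagreed, and the value was -0.87 without Sftpc-Nmyc replicate 1 and -1.86 without Sftpc-Nmyc replicate 2, both past the threshold. Gdf10 did not pass once wild-type replicate 1 (adjusted p = 0.10, limma) or wild-type replicate 2 (0.065) was dropped. Bmp6 fell by 0.71 ± 0.23 (41.6 and 56 against 85.5 and 86.7, limma adjusted p = 0.0496). Its Sftpc-Nmyc signals lay below the highest Bacillus control. The Bmp6 call did not hold without any 1 of the arrays, with log2 fold changes from -0.87 to -0.54. Bmp5 at -0.37 ± 0.18 and Gdf2, the circulating BMP9, at 0.80 ± 0.50 did not pass. Gdf2 was dim, at 34.8 and 74 in Sftpc-Nmyc lungs and 17.3 and 48.2 in wild-type lungs. Of 4 tested genes of activin, nodal and inhibin type, 0 passed in limma and 2 were lower at an unadjusted p under 0.05, with values from Inhbb at -0.73 ± 0.24 (limma adjusted p = 0.053) to Lefty1 at 0.20 ± 0.25. Most BMP genes outside these were too dim to test, as 7 of 11 measured BMP and GDF ligands fell below the filter.

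Antagonists and modulators gave 2 lower genes of 8 tested (25%, against 15.7% of all genes) and 0 higher. Bambi, a pseudoreceptor without a kinase that dampens both branches, fell by 1.18 ± 0.17 (105.1 and 87.1 against 223.9 and 227). Nbl1, a secreted BMP antagonist of the DAN family, fell by 1.08 ± 0.16 (118.1 and 116.5 against 240.2 and 271.1), and both calls held whichever array was left out. Twsg1, a BMP-binding protein, at -0.35 ± 0.14, and Fstl1, a secreted follistatin-like protein needed for mouse lung development, at 0.33 ± 0.14, did not pass. A second Fstl1 probe set, 1416221_at, was higher at 0.44 (adjusted p = 0.021 in limma across probe sets). The antagonists Nog, Fst and Chrdl1 were too dim to test.

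Genes that store and release TGF-beta gave 4 lower (40%, against 15.7% of all genes) and 0 higher of 10 tested. Mmp14, a membrane protease, fell by 0.84 ± 0.14 and passed whichever array was left out. Ltbp3, a latent TGF-beta binding protein, fell by 0.64 ± 0.13, and this change did not pass once wild-type replicate 2 was dropped (adjusted p = 0.077, limma). Dcn, a matrix proteoglycan that binds TGF-beta, fell by 1.11 ± 0.26. The fourth call was Itgb6, the epithelial integrin subunit that activates latent TGF-beta, at 28 and 25.3 in Sftpc-Nmyc lungs and 58.5 and 70.9 in wild-type lungs. All of these lie below the highest Bacillus control, so its estimate of -1.04 ± 0.29 is no measured size of a fall. A second Itgb6 probe set, 1422983_at, also below that control, read 24 and 23.4 against 56.8 and 52.4. Its log2 fold change was -0.96 ± 0.29 (adjusted p = 0.045 in limma across probe sets). The Dcn call ended without Sftpc-Nmyc replicate 1 (-0.73, limma adjusted p = 0.055), wild-type replicate 1 (0.12) or wild-type replicate 2 (0.059). The Itgb6 call ended without any 1 of the arrays (limma adjusted p = 0.067 to 0.15). Ltbp1, Ltbp2 and Ltbp4 did not pass, at -0.26 ± 0.30, -0.11 ± 0.15 and 0.17 ± 0.14, and all Ltbp1 signals lay below the highest Bacillus control.

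Of 5 tested Smads that carry the signal, 0 passed in limma, and at an unadjusted p under 0.05 Smad1 was lower and Smad4 higher. Smad1 of the BMP branch stood at -0.41 ± 0.15 (limma adjusted p = 0.077) and Smad5 at -0.13 ± 0.15. Smad2 of the TGF-beta branch stood at 0.17 ± 0.18, Smad3 at 0.01 ± 0.24 and the common partner Smad4 at 0.33 ± 0.14. Probe sets 1422487_at and 1422486_a_at of Smad4 stood at 0.24 ± 0.16 and -0.08 ± 0.16. Of 11 Smad regulators 3 were lower (27.3%, against 15.7% of all genes) and 2 higher (18.2%, against 14.7%). Zeb1 and Zeb2, Smad-binding repressors of epithelial genes found in mesenchyme, fell by 1.47 ± 0.15 and 0.90 ± 0.18, and Skil, a Smad co-repressor, fell by 0.65 ± 0.16. The repressors Tgif2 and Tgif1 rose by 0.88 ± 0.17 and 0.75 ± 0.19. The calls of Zeb2 (limma adjusted p = 0.059) and Tgif2 (0.058) ended without wild-type replicate 2. Those of Skil (0.066, 0.070 and 0.11) and Tgif1 (0.058, 0.11 and 0.090) ended without Sftpc-Nmyc replicate 1, Sftpc-Nmyc replicate 2 or wild-type replicate 1. With the mean of the probe sets of a gene in place of the brightest, Zeb1 (-0.41, limma adjusted p = 0.30) and Skil (-0.28, 0.35) did not pass. For both genes, every probe set in that mean besides the brightest was too dim to test on its own.

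Transcripts often induced by TGF-beta were lower in 11 of 16 tested (68.8%, against 15.7% of all genes), with 0 higher. Their median log2 fold change was -0.85. Ccn2, a matricellular protein also called CTGF, gave 169.5 and 172.2 in Sftpc-Nmyc lungs and 771.5 and 643.2 in wild-type lungs, a log2 fold change of -2.02 ± 0.15 (adjusted p = 0.000285 in limma). Eln, elastin, fell by 1.03 ± 0.12, Col3a1, a fibrillar collagen, fell by 0.94 ± 0.10, and Fn1, fibronectin, fell by 0.88 ± 0.11. These 4 passed whichever array was left out. Klf10 and Junb, early response genes, did not pass, at 0.05 ± 0.18 and -0.20 ± 0.30. Several of these targets are also general genes of stroma: Col1a1, Col1a2 and Col3a1 are on the fibroblast marker list too, and Acta2 and Tagln on that of smooth muscle. Fibroblast markers were lower in 8 of 12, with summed signals of 11680 and 12780 on the Sftpc-Nmyc arrays and 19770 and 21390 on the wild-type arrays. Smooth muscle markers were lower in 3 of 6 tested, and the 8 measured summed to 1819 and 2405 against 3726 and 3480. None of these markers was listed at 0 on all arrays, and their part in the target values was not tested.

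Of 7 tested transcripts often induced by BMP, other than the Id and Smad genes above, 4 were lower and 0 higher. That is 57.1% lower, against 15.7% of all genes, and the median log2 fold change was -0.64. Klf4, a zinc finger factor, fell by 1.06 ± 0.17 and passed whichever array was left out. Gata2, a factor of blood and endothelium, fell by 0.92 ± 0.15, but not as the mean of its probe sets (-0.29, limma adjusted p = 0.58). Every Gata2 probe set in that mean besides the brightest was too dim to test on its own. Hey1, a Notch and BMP target of vessels, fell by 0.64 ± 0.18. The fourth call was Msx1, a homeobox factor, at 32.9 and 35.7 in Sftpc-Nmyc lungs and 68.7 and 66.6 in wild-type lungs. All of these lie below the highest Bacillus control, so its estimate of -0.80 ± 0.25 is no measured size of a fall. Hey1 did not pass without Sftpc-Nmyc replicate 1 (limma adjusted p = 0.078), Sftpc-Nmyc replicate 2 (0.12) or wild-type replicate 2 (-0.43, 0.17). Msx1 did not pass with any 1 of the arrays left out (0.13 each time), nor as the mean of its probe sets (-0.35, limma adjusted p = 0.29). A second Msx1 probe set, 1417127_at, stood at 0.10 ± 0.29. Id2 at -0.31 ± 0.16 and Id4 at 0.46 ± 0.21, the remaining Id genes, did not pass. Probe sets 1450928_at and 1423260_at of Id4 stood at 0.49 ± 0.31 and -0.32 ± 0.20.

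**Figure D4:**
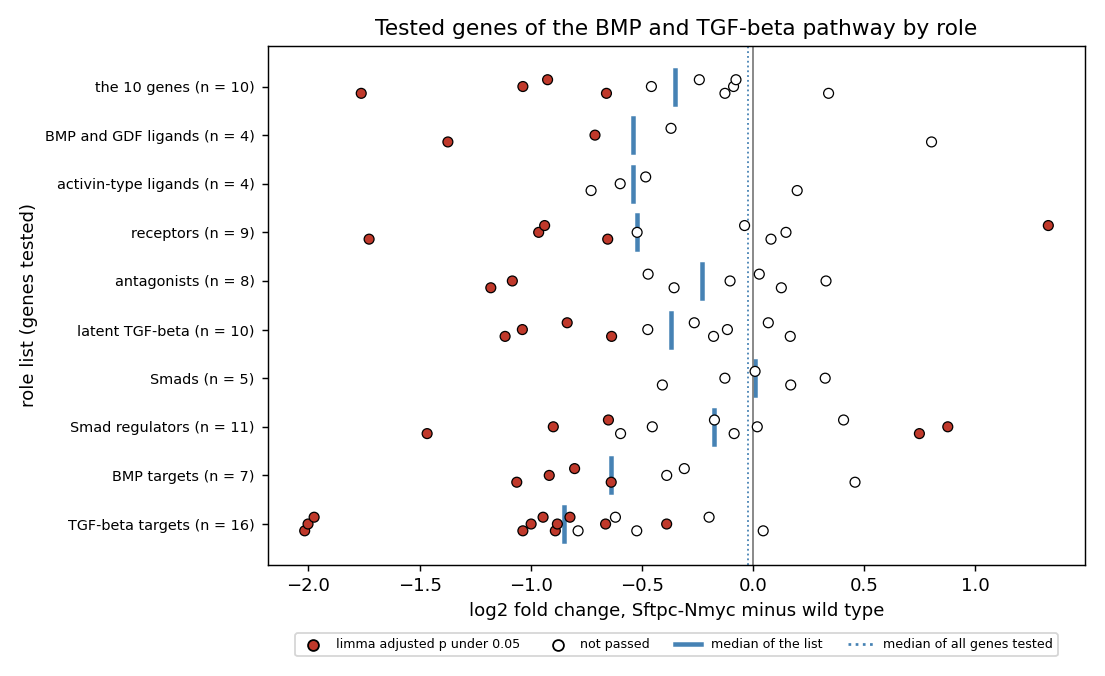
Log2 fold change, Sftpc-Nmyc minus wild type, of each tested gene by role, with filled points at a limma adjusted p under 0.05, a blue bar at the median of each list and a dotted line at the median of all genes tested (-0.02). The medians run from -0.85 for TGF-beta targets to 0.01 for Smads, and the filled points right of 0 are Acvr2b, Tgif1 and Tgif2.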

How the data were processed

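Biotin-labelled total RNA of whole lung was hybridised to 4 Affymetrix arrays, after purification with an RNeasy kit, per the labels' protocols. The value table deposited by the authors holds linear intensities, one for every probe set on each array, whose software and scaling the sources used here do not give. From them, values under 1 were set to 1, 5 was added, values were put on the log2 scale, and the 22626 non-control probe sets were quantile normalized between arrays. Probe sets with 1 symbol (20380) were named from the platform annotation. Of these 20351 matched a RefSeq table by identifier. The brightest probe set stood for a gene, and genes under the 30th percentile of mean were left out. limma 3.58.1 in R 4.3.3 (lmFit, eBayes with trend) compared the groups, at the level of genes and again of single probe sets, and the code was tested on simulated data. No detection calls were used, so presence of a transcript was not judged.

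The 10 genes and all lists were chosen with earlier results of these data known. Besides the 10, the text names up to 4 genes of each role list by absolute moderated statistic, the 2 genes closest in pattern to each of the 10 that passed, and further list members named after their values were seen. The alternatives were other offsets, filters, scalings and gene summaries, no variance trend, a replicate block, and each array left out. The number of arrays limits the precision.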

Additional observations from a re-analysis of the deposited data

How the results depend on the processing

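Bmp4, Tgfb1 and Tgfbr2 were lower at a limma adjusted p under 0.05 in all 12 alternatives run, and Tgfb3 in 7 of 12. The counts of the 10 genes that were lower ran from 3 to 4 with an array left out, and 0 were higher in any alternative. Over all genes the calls numbered 2636, from 1375 to 1899 with an array left out, and over all probe sets 3768, from 2062 to 2749. For other genes of the pathway, 30 were lower (18 to 24) and 3 higher (1 to 2). With fewer arrays the test has fewer degrees of freedom. Among the 10 genes and their probe sets, estimates changed sign for Id3 (-0.18 without Sftpc-Nmyc replicate 2 to 0.0044 without Sftpc-Nmyc replicate 1), Smad7 (-0.17 without wild-type replicate 2 to 0.019 without wild-type replicate 1) and probe set 1450922_a_at of Tgfb2 (-0.018 without Sftpc-Nmyc replicate 1 to 0.43 without Sftpc-Nmyc replicate 2). Of the other pathway genes named with a value, Junb (-0.62 to 0.23), Klf10 (-0.15 to 0.24), Lefty1 (-0.08 to 0.48), Bmpr1a (-0.06 to 0.22), Smad2 (-0.0089 to 0.35) and Smad3 (-0.25 to 0.27) changed sign with an array left out, Smad3 also without quantile normalization (-0.034). None of these 9 passed in any alternative, and the cause was not tested. The labels do not say that replicate numbers pair arrays of the groups, and deviations of same-numbered arrays correlated at -0.043 over genes. With the replicate number as a block, 2218 genes were called and 3 of the 10 were lower, with Tgfb3 at a limma adjusted p of 0.054. Signals near or below 73.4, as for Bmpr2, Tgfb3, Acvr2b, Bmp6, Gdf2, Itgb6, Msx1 and Ltbp1, limit what can be read from them.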
